A study of Mus musculus with 3 samples.

Results

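The 8 genes described here mark amacrine and horizontal cells, the inhibitory interneurons of the retina: Gad1, Gad2, Slc32a1, Slc6a9, Calb1, Calb2, Prox1 and Lhx1. They were taken as every probe set whose single gene symbol in the platform annotation is 1 of these names, which gave 1 probe set a gene, so 8 of 12422 probe sets and 8 of 8251 genes with a probe set of 1 symbol. Expression was measured on the U74Av2 oligonucleotide array in neural retina of Rp1-/- mice of a mixed 129/SvEv and C57BL/6 background. The design held 1 group of 3 arrays, each from a pool of retinas of 3 to 4 mice at postnatal day 10, all taken between 1 and 2 pm. Every pool carries the Rp1 knockout and no control genotype was analysed here, so the values describe mutant retina and the comparisons are between pools. The labels do not say whether pools shared animals, and the p-values measure the spread between these RNA samples, which may be partly technical. Only for pool 1 does the array's title not contain rp1, although its description states the same knockout, and no probe set was named Rp1, so the genotype was not checked here.

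Amacrine cells lie between bipolar and ganglion cells and release mostly GABA or glycine, while horizontal cells feed back onto photoreceptor terminals. GABA is made from glutamate by the glutamate decarboxylases Gad1 and Gad2 and is loaded into synaptic vesicles by Slc32a1, which also carries glycine. Slc6a9 takes up glycine and marks glycinergic amacrine cells. Calb1 (calbindin) and Calb2 (calretinin) are calcium buffers, and Prox1 and Lhx1 are homeodomain factors used in horizontal cell development. Several of these genes also mark other cells: Calb2 is made in ganglion cells, and Prox1 in other retinal cells and in lens.

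The promoter windows of the 3 genes of GABA synthesis and packaging are shown because 1 of them, Gad2, was under background on every array while the others were well above it. With 1 Gad2 probe set, little RNA and a weakly binding probe set cannot be told apart. The windows are therefore shown as sequence only. Each runs from 250 bases before to 50 bases after an annotated start, on the plus strand of the RefSeq annotation of GRCm38.p6, at chr2:70561879-70562178 for Gad1, chr2:22622077-22622376 for Gad2 and chr2:158610508-158610807 for Slc32a1. Capitals mark E-boxes (CANNTG), the class of site bound by bHLH factors such as Ptf1a, which directs amacrine and horizontal fate.
Gad1: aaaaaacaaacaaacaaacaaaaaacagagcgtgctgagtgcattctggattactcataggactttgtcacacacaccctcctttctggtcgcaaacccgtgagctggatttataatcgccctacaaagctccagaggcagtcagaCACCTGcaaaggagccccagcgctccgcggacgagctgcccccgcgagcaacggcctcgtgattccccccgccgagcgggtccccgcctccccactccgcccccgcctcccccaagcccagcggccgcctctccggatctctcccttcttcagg
Gad2: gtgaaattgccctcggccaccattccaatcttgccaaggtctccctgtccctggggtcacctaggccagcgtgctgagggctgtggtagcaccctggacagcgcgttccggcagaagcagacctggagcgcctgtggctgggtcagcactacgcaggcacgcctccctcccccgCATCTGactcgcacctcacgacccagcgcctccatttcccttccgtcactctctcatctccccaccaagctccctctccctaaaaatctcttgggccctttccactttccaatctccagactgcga
Slc32a1: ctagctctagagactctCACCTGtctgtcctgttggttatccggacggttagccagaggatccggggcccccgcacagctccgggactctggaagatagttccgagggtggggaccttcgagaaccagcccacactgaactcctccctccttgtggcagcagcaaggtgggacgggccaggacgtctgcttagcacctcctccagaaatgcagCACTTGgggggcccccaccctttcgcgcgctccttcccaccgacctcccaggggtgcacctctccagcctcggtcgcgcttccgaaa

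The Gad1 and Gad2 windows each held 1 E-box and the Slc32a1 window held 2, and 72.3% of 32851 promoter windows of this length held at least 1. The GC box (GGGCGG, either strand) was present once in the Gad1 window, not in the Gad2 or Slc32a1 windows, and in 35.7% of all windows. The CCAAT box (CCAAT, either strand) occurred 2 times in the Gad2 window, not in the other two, and in 37.4% of all. A TATAAA match lay in the Gad1 window, on the reverse strand, against 13.6% of all windows. TAATTA, a core read by many homeodomain factors, was in none of the 9 windows found for Slc6a9, Gad1, Gad2, Slc32a1, Prox1 and Lhx1, and in 5.29% of all. GC content was 60.0% for Gad1, 61.3% for Gad2 and 63.3% for Slc32a1, against a median of 52.7%. These matches are descriptions of the letters and were not tested as sites.

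Signals are scaled intensities as deposited. Control probe sets with no mouse target gave each array a background floor, at 100.5, 124.8 and 120.4 in pools 1, 2 and 3, and 69.7%, 65.5% and 66.2% of probe sets lay above it. In every pool 7 of the 8 genes exceeded the floor, against a share of 57.9% of all probe sets, and Gad2 was above it on none. The 7 entered the tests as measured, among all 8327 probe sets whose mean signal passed the mean floor. Each probe set binds its target with its own strength, so signals are compared between pools and not between genes. In whole retina, fewer interneurons and less RNA per interneuron cannot be told apart.

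Both genes of GABA synthesis were on the array, and they differed in detection. Signals of Gad1 were 1793.8, 2300.8 and 2255.7 in pools 1, 2 and 3, with a mean of 2117 ± 281 (SD, n = 3), and was lowest in pool 1 with the other two close together. Its signal was 17.9, 18.4 and 18.7 times the floor of its own array. Gad2 had 61.2, 43.7 and 7.4, each under its floor. With 1 probe set, little RNA and weak binding of the probe set cannot be told apart. No order of the pools and no fold was therefore read for Gad2.

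Slc32a1, the vesicular transporter shared by GABA and glycine, reached 1777.3, 1344.4 and 2208.3 in pools 1, 2 and 3. It was highest in pool 3 and lowest in pool 2, 1.64-fold apart, with a coefficient of variation of 24.3%. Slc6a9, the glycine transporter, had 2619.9, 1824.5 and 2492.2. Pool 2 was again the lowest, pools 1 and 3 lay close together, and the range was 1.44-fold. The transporters thus had their lowest signal in pool 2. Gad1 was highest there, though its signal of 2300.8 was close to the 2255.7 of pool 3. In this comparison limma's test of variability passed neither transporter (adjusted p = 0.987 for both).

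The calcium-binding proteins shared 1 order of the pools. Calb2 had 3225.7, 4193 and 3640.4 in pools 1, 2 and 3, and Calb1 had 362.8, 481.9 and 400.2. Both were highest in pool 2, intermediate in pool 3 and lowest in pool 1, with ranges of 1.30-fold and 1.33-fold. Their log2 profiles, each centred on its mean, differed by a root mean square of 0.0262 over the 3 pools, the smallest such value between any 2 of the 7 measured genes. Over 3 pools this is a description, and 8.96% of 7481 compared probe sets came within 0.1 of the Calb1 profile.

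The homeodomain factors of horizontal cells differed in how much they varied. Prox1 signal was 844.8, 522.6 and 486.7 in pools 1, 2 and 3, with pool 1 above the other two and a 1.74-fold range, the widest of the 7 measured genes. Lhx1 had 299.6, 347.4 and 301.7, with pool 2 slightly higher and a range of 1.16-fold, the narrowest of the 7. Lhx1 was also the measured gene nearest to background, at 2.98, 2.78 and 2.51 times the floor. Neither factor passed limma's test (adjusted p = 0.987 for Prox1 and 0.996 for Lhx1).

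**Figure D1:**
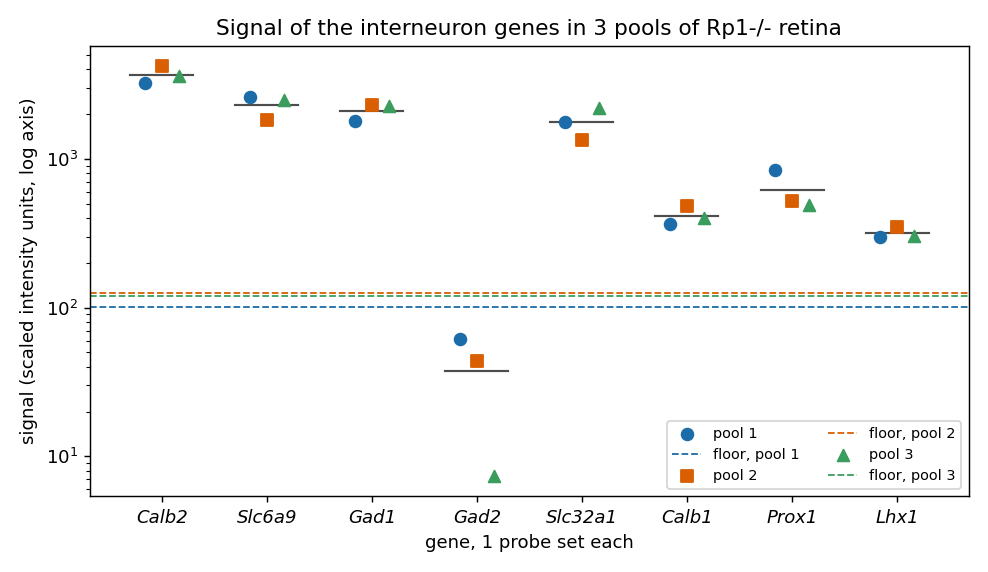
Signal of each interneuron gene (log axis, scaled intensity units) in pools 1 to 3, with the mean of the 3 pools as a horizontal bar and the floor of each array as a dashed line. Gad2 lies under all floors, and the other 7 genes lie above them in every pool.

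Prox1 is also made outside horizontal cells, so marker lists of other cells are set beside it, as signals summed over the measured genes of each list. Lens markers (12 of 13 genes with a probe set measured, all 12 above the floor on every array) summed to 95135, 25606 and 203853 in pools 1, 2 and 3, so lens signal was highest in pool 3, where Prox1 was lowest. Blood markers (4 of 5 measured) summed to 20589, 12812 and 10725, the same order of pools as Prox1, led by the haemoglobin gene Hba-a1 at 16422.3, 9461.1 and 8110.5. Hbb-b2 also had this order (3819.7, 2995.5 and 2195.6). The other measured blood genes did not: Alas2 had 299, 215.1 and 239.6, and Slc4a1 had 48.1 (under the floor), 140 and 179.1. Blood is listed as another tissue of the pools and was not read as a source of Prox1. Of the retinal cell lists given below, ganglion cell and Müller glia markers also summed highest in pool 1, while photoreceptor and bipolar markers did not. The part of lens, blood or other retinal cells in the Prox1 values was not tested. By the brightest probe set of each gene, limma called 8 of the 12 lens genes (Cryaa, Cryba1, Crybb2, Crygb, Crygc, Crygd, Cryge and Crygs), 10 without pool 1, 1 without pool 2 and 1 without pool 3. Another Cryge probe set was also called, at 14933.2, 4396.6 and 30408.8 (limma, adjusted p = 0.00084). Other probe sets of 3 of these genes were not called: Crybb2 at 798.8, 846.6 and 991.3, Crygb at 306.3, 166.7 and 465.3, and Cryge at 202.3, 241.3 and 207.7 (limma, adjusted p of 0.996, 0.886 and 0.996). Further probe sets of Crygd and Cryge were under the floor on all arrays.

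Markers of other cells were read beside the tissue label, and most of the measured ones exceeded the floor in every pool. So did 7198 of the 8327 measured probe sets. Measured genes had already passed the mean floor, so these counts do not check the label. Above the floor in every pool were 14 of 14 photoreceptor, 8 of 9 ganglion cell, 5 of 5 bipolar and 8 of 9 Müller glia markers. For pigment epithelium they were 4 of 4 and for endothelium 5 of 7. Photoreceptor markers (14 of 14 measured) summed to 124728, 132781 and 124480, led by rod arrestin Sag at 20486.2, 27334.3 and 26845.2. Of these 14, limma called Prph2 (9356.3, 1469.1 and 1332.3; adjusted p = 0.00112), a call that was lost without pool 1 (adjusted p = 0.995). Ganglion cell markers (9 of 11 measured), which bear on Calb2, summed to 13633, 13224 and 12867, led by the ubiquitin hydrolase Uchl1 at 3406.6, 3095.2 and 3700.5. Of the 9, 3 had the order of pools of Calb2: Stmn2 (2443.1, 2845.9 and 2556.7), Gap43 (1331.4, 2015.2 and 1427.5) and Eomes (102.6, 182.5 and 116.5, the last under the floor). These 3 were the ganglion cell markers highest in pool 2, where 33.7% of all measured probe sets were highest. Stmn2 has 2 further probe sets and Eomes 1, which were not read here. The part of ganglion cells in the Calb2 values was not tested. Müller glia markers (9 of 10 measured) summed to 25337, 21995 and 24572, led by Car2 (carbonic anhydrase) at 7104.6, 7816.2 and 7687.8. Bipolar markers (5 of 5 measured) summed to 8768, 9660 and 9961, led by Gnao1 at 4890.6, 6617 and 6227.2. Further Gnao1 probe sets at 330.6, 375.5 and 260.1 and at 361.4, 707.1 and 552.9 were also highest in pool 2. Another was lowest there, at 356.6, 79.5 (under the floor) and 346.9, and a last was under the floor on all arrays. Pigment epithelium markers (4 of 6) summed to 1434, 1381 and 2221, led by Dct at 498.6, 449.8 and 649, and endothelial markers (7 of 8) to 2413, 2366 and 3102, led by Eng at 702.1, 583.7 and 964.7.

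Between pools, 3 of the 7 measured interneuron genes varied more than the trend for their signal and 4 varied less, and none passed the test. The test fitted limma's variance model with an intensity trend to all 8327 measured probe sets and called 18 of them (0.216%) at an adjusted p below 0.05. No interneuron gene was called, and none had an unadjusted p under 0.05, against 5.34% of all measured probe sets; for 7 genes, counts of 0 are near these shares. The adjusted p of the 7 genes lay between 0.987 (limma, Prox1, Slc32a1 and Slc6a9) and 0.996 (limma, Lhx1). The SD of log2 signal was 0.433 for Prox1, 0.359 for Slc32a1 and 0.283 for Slc6a9, each above the trend for its signal (0.285, 0.248 and 0.240). It was 0.208 for Calb1, 0.200 for Gad1, 0.189 for Calb2 and 0.120 for Lhx1, each below the trend (0.319, 0.243, 0.226 and 0.356). The median SD was 0.208 for the 7 genes and 0.268 for all measured probe sets. The smallest range among the 18 called probe sets was 3.55-fold, against 1.74-fold for Prox1, and a missed threshold does not show that the pools were alike.

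**Figure D2:**
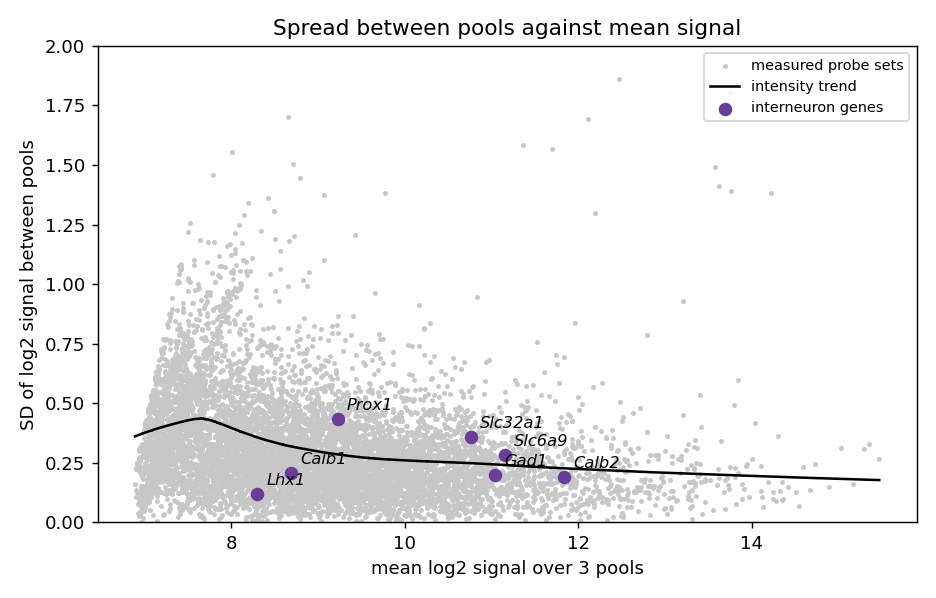
SD of log2 signal between the 3 pools against mean log2 signal for the 8327 measured probe sets (grey), with limma's intensity trend (line) and the 7 measured interneuron genes (purple); 2 probe sets lie above the axis limit of 2. Prox1, Slc32a1 and Slc6a9 lie above the trend, and Calb1, Gad1, Calb2 and Lhx1 below it.

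Pair by pair, no measured interneuron gene differed by more than 2-fold between pools, a threshold passed by 6.24% of measured probe sets for pools 1 and 2, 6.92% for pools 1 and 3 and 5.1% for pools 2 and 3. With 7 genes, a count of 0 is near these shares. For pool 1 minus pool 2 the median log2 difference of the 7 genes was -0.21, against -0.01 for all measured probe sets, with 3 genes higher and 4 lower in pool 1. The genes split: Prox1 (0.69), Slc6a9 (0.52) and Slc32a1 (0.40) were higher in pool 1, while Calb1 (-0.41), Calb2 (-0.38), Gad1 (-0.36) and Lhx1 (-0.21) were lower. The median absolute log2 difference of this pair was 0.403 for the 7 genes and 0.323 for all measured probe sets. For the other pairs the 7 genes had the smaller value: 0.174 against 0.306 for pools 1 and 3, and 0.204 against 0.292 for pools 2 and 3.

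Pools 1 and 3 were closer for most of these genes. The median log2 difference for pool 1 minus pool 3 was -0.14, against -0.01 for all measured probe sets, with 2 genes higher and 5 lower in pool 1. Prox1 stood apart at 0.80, and the others lay between -0.33 (Gad1) and 0.07 (Slc6a9). For pool 2 minus pool 3 the median was 0.10, against 0.01 for all, with 5 genes higher and 2 lower in pool 2. The exceptions were Slc32a1 (-0.72) and Slc6a9 (-0.45), and the others lay between 0.03 (Gad1) and 0.27 (Calb1).

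**Figure D3:**
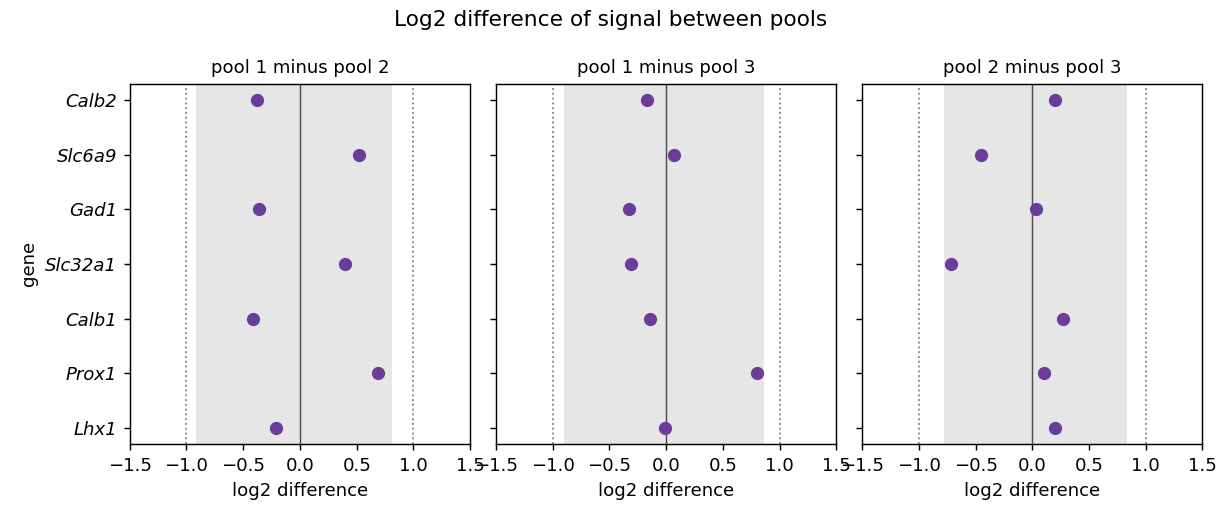
Log2 difference of signal for each pair of pools, 1 point per measured interneuron gene; dotted lines mark 2-fold and grey bands the 5th to 95th percentile of all measured probe sets. Every point lies inside the dotted lines and inside the band, and Slc6a9 and Slc32a1 lie on the other side of 0 from Calb1 and Calb2 in the comparisons of pool 2 with either other pool.

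Counted by pool, 4 of the 7 genes (Calb2, Gad1, Calb1 and Lhx1) were highest in pool 2, 2 (Slc6a9 and Prox1) in pool 1 and 1 (Slc32a1) in pool 3. Of all measured probe sets 33.7% were highest in pool 2, 34.1% in pool 1 and 32.2% in pool 3. The 4 genes highest in pool 2 were all lowest in pool 1. No test was made of this count.

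The rest of the GABA and glycine machinery was measured in part, and none of it passed limma's test. Of the GABA metabolism list, 6 of 11 genes had a probe set and 4 were measured: Gad1, Slc32a1, the GABA transporter Slc6a13 at 572.3, 421.5 and 552.9 in pools 1, 2 and 3, and Glul (glutamine synthetase) at 876, 1069.6 and 684.2. Slc6a13 shared with Slc6a9 and Slc32a1 its lowest signal in pool 2. A second Glul probe set ran the other way at 482.2, 422.7 and 795.4, so no order is read for Glul. Of the glycine list, 4 of 8 genes had a probe set and all 4 were measured, none called. Glrb, the beta subunit that anchors glycine receptors, had 1025.3, 1696.6 and 1063.1, and its anchor Gphn (gephyrin) had 508.8, 813.7 and 766.3. Glra1, an alpha subunit, had 494.8, 573.4 and 167.6, with pool 3 below the other two by up to 3.42-fold (limma, adjusted p = 0.557). All 3 of these receptor-side genes were highest in pool 2, as were 33.7% of all measured probe sets. The glycine transporter Slc6a9 was lowest in that pool, and this contrast was not tested.

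GABA receptor genes differed in detection. Of 12 with a probe set 8 were measured and none was called, and 4 of the 8 exceeded the floor in every pool. Gabbr1, a subunit of the metabotropic receptor, had 1951.8, 1475.7 and 2053.2, and Gabarap, a receptor-associated trafficking protein, had 3001.6, 3481.3 and 3100.5. Gabrb1, a beta subunit of the ionotropic receptor, had 174.5 and 246.5 in pools 2 and 3 and was under the floor in pool 1 (23.6).

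Among neuronal calcium-binding proteins 11 of 13 genes with a probe set were measured and none was called. Calb1 and Calb2 shared their highest pool with Rcvrn (recoverin, of photoreceptors) at 3980.8, 5474 and 4333.1, which also had their order of pools. Pvalb (parvalbumin) had 1242.3, 905 and 1839.4, and at 2.03-fold its range was the widest of the list among genes above the floor on every array (limma, adjusted p = 0.882), and a second Pvalb probe set was under the floor on all arrays. Hpcal1, a neuronal calcium sensor, was steady at 1459.3, 1447.4 and 1417.7. Ncs1 was above the floor in pool 3 alone (224.5, against 86.5 and 117.6).

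Of the measured genes on the list of amacrine and horizontal transcription factors, most were highest in pool 1. The list was chosen with earlier results of these data known, so the count is a description, and no test was made of it. Of 23 with a probe set 21 were measured, and 17 of these were highest in pool 1, 2 in pool 2 and 2 in pool 3, against 34.1% of all measured probe sets highest in pool 1. With Prox1 and Lhx1 left out the count was 16 of 19. On the log2 scale their median excess in pool 1 was 0.35 over pool 2 and 0.46 over pool 3, where all measured probe sets had -0.01 in both pairs. The Tfap2 factors, of which Tfap2a and Tfap2b act in amacrine and horizontal cells, had this pattern, with Tfap2b at 1097.2, 687.7 and 927.3, Tfap2a at 543.1, 395.9 and 364.5 and Tfap2c at 704.5, 601.7 and 433.7 in pools 1, 2 and 3. Onecut1, a factor of horizontal cells, had 221.6, 130.7 and 171.2, and Isl1, used in cholinergic amacrine, bipolar and ganglion cells, had 1515.8, 1465.5 and 966.3. The Tfap2 genes, Onecut1, Isl1 and Pax6 were chosen for mention with their values already known.

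No gene of this list was called, and 1 of the 21 had an unadjusted p under 0.05 in limma's test. That gene, Neurod2 (a bHLH factor), had 431.3 and 295.6 in pools 1 and 2 and was under the floor in pool 3 at 97.6 (limma, adjusted p = 0.76). Nr2f1 (an orphan nuclear receptor) had 499.1, 473.4 and 240.7, and Nr4a2, which is needed by dopaminergic neurons of the brain, had 268.2, 144 and 78.7, the last under the floor. The factors with the highest signal went different ways: Neurod1 had 4031.1, 5029.6 and 5249.9, and Neurod4 had 3922.4, 2760.5 and 3364. Pax6, a factor of amacrine, horizontal and ganglion cells, was among the exceptions at 1663.7, 1707.8 and 1856.4. The array of pool 1 also had the lowest floor and the most probe sets above it, and it is the array without rp1 in its title; their part in the count was not tested. The count was 17 of 21 after quantile normalization and with all measured probe sets of a gene averaged, and 14 of 18 among genes that exceeded the floor in every pool, alternatives chosen after seeing the data.

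**Figure D4:**
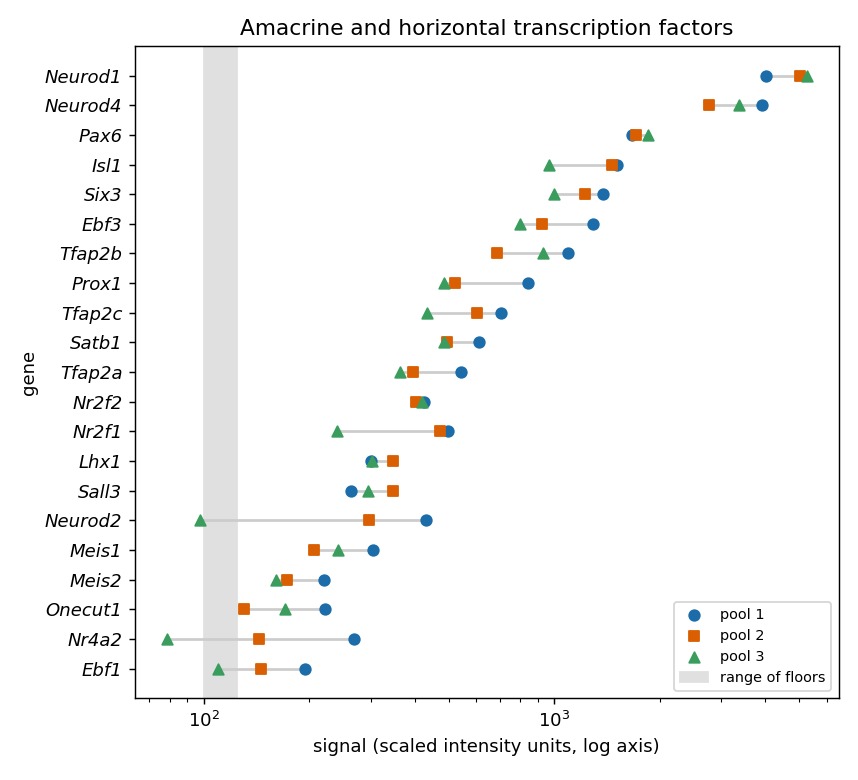
Signal of the 21 measured transcription factors of amacrine and horizontal cells (log axis, scaled intensity units) in pools 1 to 3, ordered by mean signal, with the range of the 3 floors as a grey band. Pool 1 (circles) is the rightmost point for 17 of 21 genes, among them Prox1 but not Lhx1.

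Transmitter enzymes and peptides that mark amacrine subtypes differed in detection. Of 12 with a probe set 10 were measured, none was called, and 7 of the 10 exceeded the floor in every pool. The dopaminergic marker Th (tyrosine hydroxylase) had 135.7, 324 and 237 in pools 1, 2 and 3, 2.39-fold between pool 2 and pool 1, the lowest (limma, adjusted p = 0.987). Ddc, the next enzyme of dopamine synthesis, was above the floor in pools 1 and 2 alone at 113.4 and 249.9, with 90 in pool 3. The peptide gene Sst (somatostatin) had 196.4, 220 and 408.4, and Npy (neuropeptide Y) had 1364.1, 1614.9 and 1342.5. Nos1, which makes nitric oxide, had 141.8 and 206 in pools 2 and 3 and was under the floor in pool 1 (85.3), and Ache (acetylcholinesterase) had 488.4, 475.3 and 652.3.

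A last list of synaptic and structural markers had 14 of 18 genes measured, all 14 above the floor on every array and none called. Snap25, a vesicle fusion protein of many retinal neurons, had 10858, 7535.1 and 9048.1, lowest in pool 2 like Slc6a9 and Slc32a1. Cplx2, a complexin that regulates transmitter release, had 739.1, 1531.4 and 1346.9, 2.07-fold between pool 2 and pool 1, the lowest (limma, adjusted p = 0.832). Gjd2, the gap junction protein of AII amacrine cells, had 137.6, 182.4 and 289.9. Car2 was the other gene of the list with the highest signal and is given with Müller glia above. Over all 7 lists, without the interneuron genes, 65 of 80 genes with a probe set were measured. Of these, 0 were called by limma (0.216% of all measured probe sets) and 4 had an unadjusted p under 0.05 (5.34% of all). Beyond 2-fold between any pools were 13 of the 65 (20.0%), against 13.2% of all measured probe sets, and the difference between these shares was not tested.

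The genes whose profiles over the 3 pools were most like an interneuron gene differed from it by a root mean square of at most 0.0148 on the centred log2 scale. They were Ctsh and Xiap for Calb2, Lypla1 and Ipo4 for Slc6a9, Clgn and Idi1 for Gad1, Lama4 and Mapkbp1 for Slc32a1, Fcf1 and Ahi1 for Calb1, Fau and Arfgap3 for Prox1, and Vta1 and Smyd1 for Lhx1. Lypla1, the nearest to Slc6a9, had 2185, 1525.8 and 2074.7 in pools 1, 2 and 3. Lama4, Fau and Smyd1 were under the floor in 1 pool each. With 3 pools near matches are common: between 2.39% (Prox1) and 11.8% (Lhx1) of 7481 compared probe sets came within 0.1.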

How the data were processed

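The intensity values are linear signals per probe set, deposited by the authors in 1 table; which software, version and background method made them is not stated in the sources used here. The trimmed means (2% at each end) were 500.25 to 500.26, so the deposited arrays had been scaled as a whole, and no further scaling was applied. Of 12488 probe sets, 66 controls were left out. Pools were numbered in accession order, so numbers are names. Symbols came from the platform annotation, updated by gene identifier (GRCm38.p6); where a gene had several probe sets, the brightest by mean signal stood for it.

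The floor was the 90th percentile of 19 bacterial and yeast controls per array. Signals under it were set to it before log2. limma 3.58.1 (R 4.3.3) fitted an intercept-only model, and its residual variances were compared with a robustly fitted F distribution that follows mean intensity, with Benjamini-Hochberg adjustment over 8327 probe sets; it was tested on simulated data. Other steps used pandas 2.3.3, numpy 2.4.6 and matplotlib 3.10.9 under Python 3.11.15. No depth exists for arrays; their number limits the precision. Alternatives changed the floor, scaling, filter, fit, arrays and probe set rule.

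The genes and lists were chosen with earlier results of these data known. Beside the 8 genes, the text names genes of the 7 amacrine and horizontal lists. These were called, exceeded 2-fold between pools or had the highest signal. In the 8 marker lists of other cells it names genes that were called and the one with the highest signal. It also names the 2 nearest profiles of each of the 7 measured genes. Genes outside this rule were chosen after their values were seen.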

Additional observations from a re-analysis of the deposited data

How the results depend on the processing

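Under the 11 other settings, each run where it applies, the counts for the interneuron genes kept their values: 7 above the floor on all arrays used, 0 called by limma and 0 beyond 2-fold. Averaging the probe sets of a gene, 1 of these settings, could change nothing, as each interneuron gene has 1 probe set. The ordinary fit and the fit with no intensity trend bear only on the calls by limma. Over 67 repeated limma tests of the 7 measured genes the adjusted p lay between 0.797 and 0.998. The 63 differences between pools recomputed under other floors and quantile normalization all kept their sign. Since the 7 genes lay above every floor used, a changed floor could not move their differences. Only the differences after quantile normalization could have changed sign. No gene of the 7 wider lists was called under any fit. The calls of Prph2 and of single lens genes depended on the arrays used and on the fit: with an ordinary fit 4 of 12 lens genes were called and with no intensity trend none, while leaving out the filter on low signal gave 10. No paired analysis was possible because the 3 arrays form 1 group. Gad2, under the floor on all arrays, could be tested only without the filter, and Lhx1 at about 3 times the floor is the measured gene most limited by background.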
